A study of Mus musculus with 4 samples.

Results

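The 597 regions described here are the autosomal entries of the CHG context in the authors' deposited table of differentially methylated regions. They were taken by context and chromosome alone, with no further choice by level or direction. Each is a region that the authors had already called different between the groups, so that it differs is not a result here. The table holds 101350 regions in all. On the autosomes it lists 52991 regions of the CHH context and 46832 of the CG context, so CHG is by far the smallest class. DNA methylation had been measured by whole-genome bisulfite sequencing, in which unmethylated cytosines are converted and methylated ones are not, in somatosensory cortex taken from mice at 2.5 months of age. The knockout group (cKO) carried the genotype Nsd1Nex-cKO and the control group the genotype Nsd1fl/+, with 2 libraries each. The control thus carried a floxed Nsd1 allele as well, and the labels do not say whether it carried Cre. Nex drives recombination in excitatory neurons of the forebrain, whereas the dissected tissue also holds interneurons, glia and vessels, whose Nsd1 remains. The labels number the libraries and do not say whether they came from separate animals. The table gives 1 mean level per group and region. The spread between libraries and the depth are therefore unknown, every level below is the authors' mean over 2 libraries, and no test between groups could be made.

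Cytosines are sorted by the bases that follow them. CHG is a cytosine followed by A, C or T and then G, and CHH is one followed by 2 such bases. A CAG site is CHG on one strand and pairs with CTG on the other, whereas CHH sites have no such partner. In plants CHG methylation is copied at replication by a dedicated enzyme. In mammals methylation outside CG is found above all in neurons, where DNMT3A lays it down after birth, mostly at cytosines before A. NSD1 is a histone methyltransferase that places dimethylation at H3K36, a mark that DNMT3A can bind.

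In 3 of the 597 regions the RefSeq promoter windows (build GRCm38.p6, the assembly of mm10) hold the bases of the whole region, and they show what such a region is made of. The part of each that lies before the listed start site is given 5′ to 3′ on the strand of the gene. Capitals mark CHG cytosines: a capital C is one on the strand shown, and a capital G stands opposite one on the other strand.
Patj, chr4:98546587-98546633, plus strand: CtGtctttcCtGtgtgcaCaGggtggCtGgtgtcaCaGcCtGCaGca
Aqp1, chr6:55336257-55336298, plus strand: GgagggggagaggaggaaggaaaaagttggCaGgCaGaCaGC
Gm35343, chr17:15053493-15053585, minus strand: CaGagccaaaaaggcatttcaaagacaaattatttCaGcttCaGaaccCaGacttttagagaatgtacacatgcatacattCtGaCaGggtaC
Counted on both strands over the whole region, the bases held 27 CHG cytosines in Patj, 15 in Aqp1 and 13 in Gm35343, which equals the authors' number of cytosines in each of the 3. All 3 regions began and ended on a CHG cytosine. Of these 55 cytosines, 54 were in CAG or CTG and 1 was in CCG. The window of Patj belongs to a start site inside the gene, and that of Gm35343, a predicted long non-coding RNA, lies inside Ermard. Patj, a scaffold protein of cell polarity, was at 7.57% in control and 1.65% in cKO. Aqp1, a water channel, was at 2.53% in control and 0.354% in cKO. The Gm35343 region went the other way, with 1.33% in control and 5.79% in cKO.

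CHG methylation was lower in cKO at 452 of the 597 regions and higher at 145. The lower share was 75.7% (95% exact binomial interval 72.1% to 79.1%, which covers the counting of regions only), against 88.9% lower and 11.1% higher among all 100420 autosomal regions of the table. The lower share was 84.1% in CHH and 94.5% in CG. In the regions lower in cKO the median level was 5.42% in control (quartiles 3.51% and 7.48%) and 0.405% in cKO. In the regions higher in cKO it was 0.256% in control and 4.49% in cKO (quartiles 3.07% and 7.06%). The median difference was -5.02 points for the former and 4.12 points for the latter. The smallest absolute difference listed was 2.00 points, in a region at 2.11% in control and 0.105% in cKO. Differences under 4 points made up 36.1% of the losses and 47.6% of the gains, and differences of 10 points or more were found in 19 losses and 6 gains. The highest levels were 17.2% in control and 15.9% in cKO, and the highest control level among the gains was 3.36%.

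**Figure D1:**
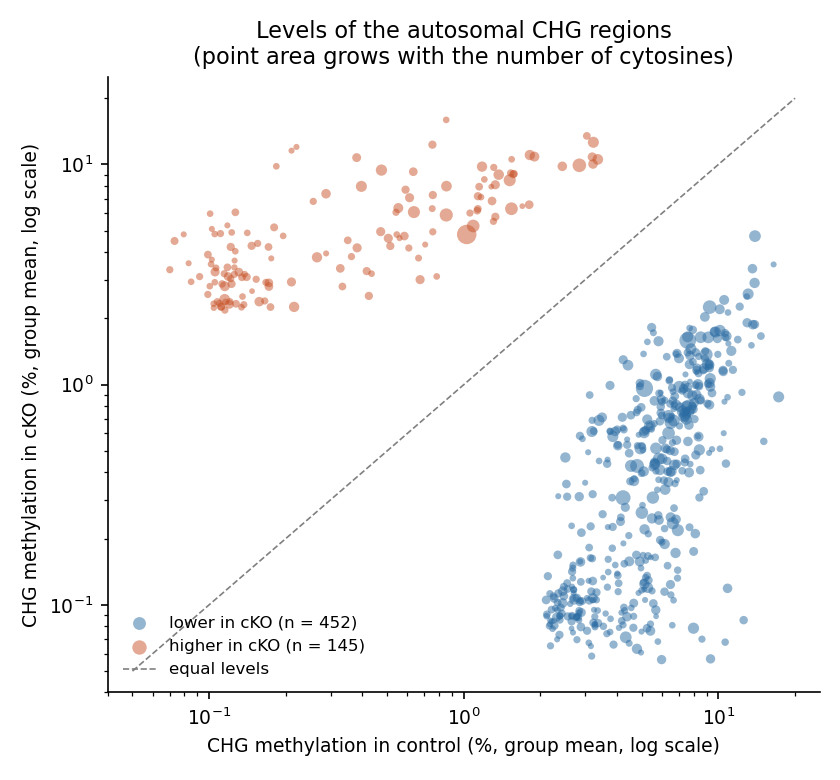
Mean CHG methylation of each of the 597 regions in control (x axis, percent, log scale) and in cKO (y axis, percent, log scale); each point is 1 region and its area grows with its number of cytosines. The 452 regions lower in cKO lie below the dashed line of equal levels and the 145 higher ones above it, and in both sets the lower group's level reaches below 0.1%.

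The regions were short. Their median length was 75 bp, with a range from 51 to 393 bp, and they held a median of 12 CHG cytosines, against 45 cytosines in a CHH region of 124 bp. In all they covered 51.3 kb and 8541 cytosines. CHG cytosines stood at a median of 15.7 per 100 bp of region. The densest regions reached 49.1 per 100 bp, with 26 cytosines in 53 bp, and 48.9 per 100 bp in Pla2g6, with 93 cytosines in 190 bp. Of the regions lower in cKO 33.2% held fewer than 10 cytosines, and of those higher 46.2% did.

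In many regions 1 group was almost unmethylated. The level of the lower group was under 1% in 82.3% of the losses and in 76.6% of the gains, against 48.9% and 21.2% of the CHH losses and gains. It was under 0.2% in 174 losses and 68 gains, a bound chosen after the levels were seen. The medians of these 68 gains were 0.120% in control, 3.10% in cKO and 9 cytosines. In 34 gains the control level was 1% or more, and their medians were 1.44% in control and 8.52% in cKO over 14 cytosines. These regions differed in their surroundings too. Of the 68 gains from under 0.2%, 34 lay in a protein-coding gene and 38.2% had a CHH gain as their nearest CHH region. Of the 34 gains from 1% or more, 85.3% lay in such a gene and 85.3% had a CHH gain nearest. The losses were less divided, with a CHH loss nearest in 89.1% of those that went below 0.2% and in 97.5% of those that stayed at 1% or more. Regions with more cytosines also lay closer to CHH regions. The median distance was 6.90 kb for losses of 4 to 9 cytosines, 3.45 kb for those of 10 to 19 and 0.321 kb for those of 20 or more. For gains it was 19.8 kb, 9.19 kb and 3.21 kb, and the share with a CHH gain nearest was 47.8%, 52.6% and 85.7%. How far the number of cytosines, the read depth or incomplete conversion contributes to these classes was not tested.

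Inside Nsd1 itself (chr13:55209782-55318325), the targeted gene, both CHG regions were higher in cKO. The left one (chr13:55245610-55245788, 28 cytosines) stood at 0.475% in control and 9.43% in cKO. The right one (chr13:55248599-55248718, 16 cytosines) stood at 0.380% in control and 10.7% in cKO. They began 35.8 kb and 38.8 kb from the end of the gene with the lower coordinate and lay 2.81 kb apart. Each sat wholly inside a CHH region that was also higher in cKO, and in cKO each CHG level was above that of its CHH region (7.84% and 7.90%). In control the left CHG level was above its CHH level of 0.408% and the right one below its CHH level of 0.581%. The other 3 CHH gains of Nsd1 lay between the CHG regions, at 4.77% to 5.24% in cKO, and no CHG region was listed there. In CG the gene held 1 region, a loss from 50.4% in control to 29.8% in cKO (chr13:55210007-55210165). It began 0.225 kb from the end of the gene with the lower coordinate. Methylation levels are no measure of the deletion itself, and the position of these regions relative to exons was not analysed here.

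**Figure D2:**
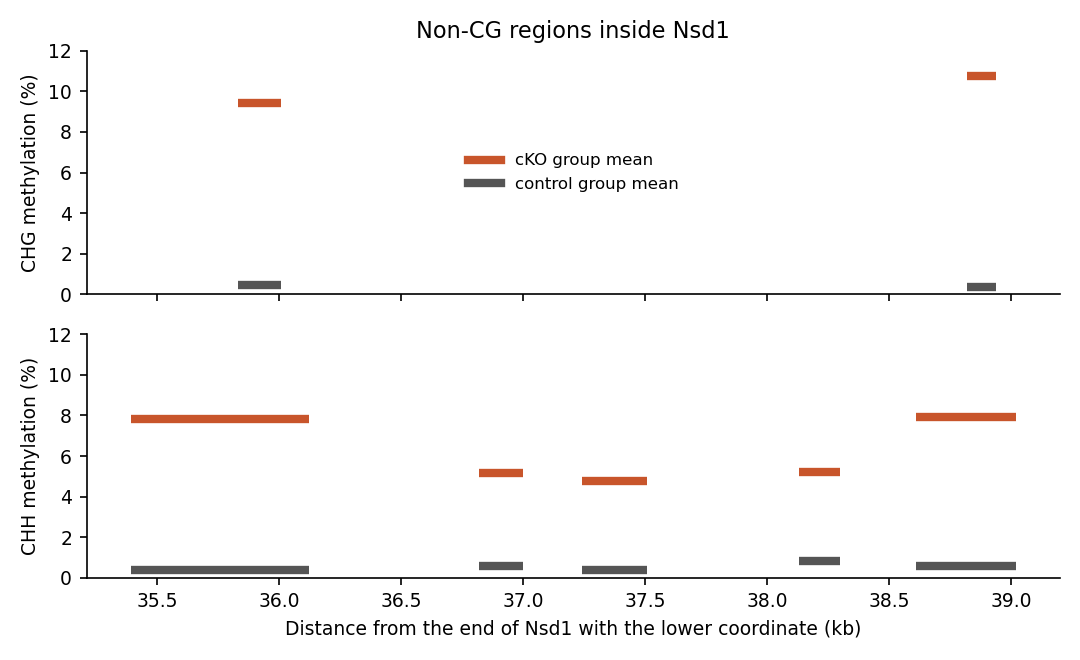
Regions outside CG that the table lists inside Nsd1, drawn to scale by their distance from the end of the gene with the lower coordinate (x axis, kb), with their mean methylation (y axis, percent) in cKO (orange) and control (grey). The 2 CHG regions (upper panel) stand at 9.43% and 10.7% in cKO, above the outer 2 of the 5 CHH regions (lower panel) that enclose them, and all control levels are under 1%.

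Most CHG regions shared no bases with a CHH region. Of the 452 losses 94 (20.8%) overlapped a CHH region by at least 1 bp, and of the 145 gains 14 (9.66%) did. The median distance from edge to edge, with an overlap counted as 0, was 3.18 kb for losses and 12.6 kb for gains. To the nearest CHH region of the same direction it was 3.38 kb for losses and 46.4 kb for gains. A CHH region lay within 1 kb of 37.2% of the losses and 17.9% of the gains, and within 10 kb of 67.7% and 45.5%. For comparison, CG regions overlapped a CHH region in 5.26% of the losses and 0.464% of the gains, at median distances of 7.22 kb and 28.9 kb. Seen from the other side, 0.211% of the CHH losses and 0.154% of the CHH gains overlapped a CHG region, since CHH regions are far more numerous. The numbers of CHH regions of each direction differ too, 44564 lower and 8427 higher, and these distances were not corrected for that.

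**Figure D3:**
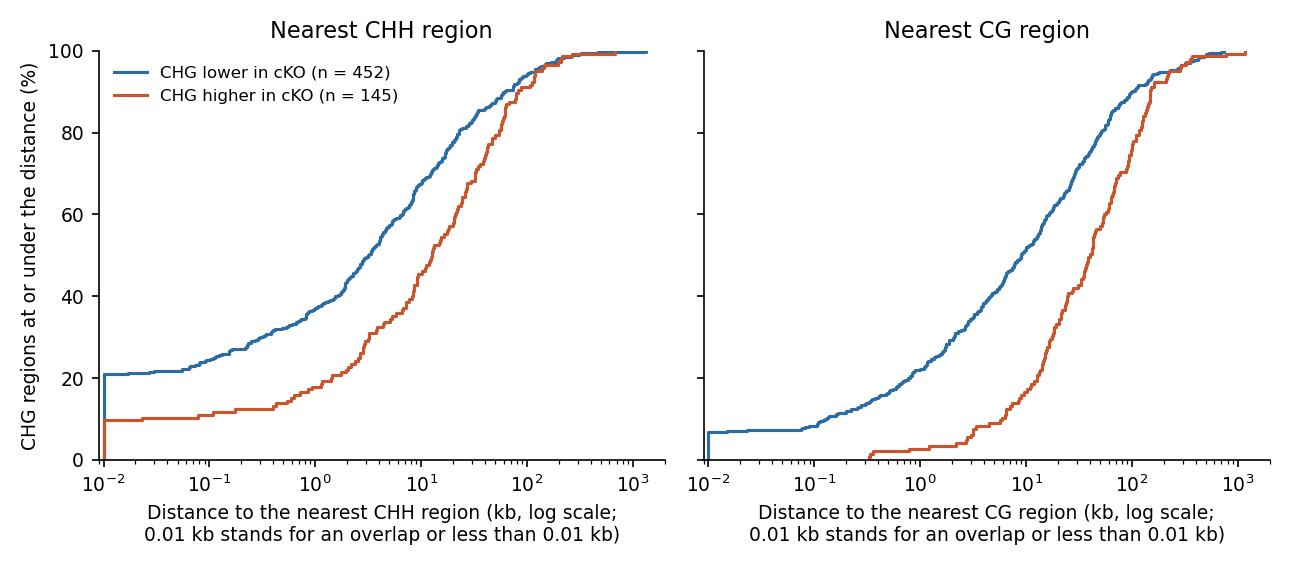
Share of the CHG regions (y axis, percent) that lie at or under a given distance from edge to edge (x axis, kb, log scale) of the nearest CHH region (left) or CG region (right), for the 452 regions lower and the 145 higher in cKO; a step at 0.01 kb stands for an overlap or a gap below it. Overlaps make up nearly all of the first step, 20.8% of the losses and 9.66% of the gains for CHH, and 0% of the gains for CG.

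Where CHG and CHH regions shared bases they nearly always shared direction. Of the 94 losses that overlapped a CHH region 93 overlapped a CHH loss, and of the 14 gains 12 overlapped a CHH gain. The 3 exceptions, named because they were seen to differ, held 5, 7 and 5 CHG cytosines and lay outside genes. The first 2 (chr2:174230148-174230215 and chr3:84310676-84310738) were CHG gains from 0.0831% to 3.56% and from 0.138% to 3.18% on CHH losses. The third (chr7:132351591-132351678) was a CHG loss from 2.33% to 0.0697% on a CHH gain. Away from overlaps the directions of losses and gains parted. For losses the nearest CHH region was also a loss in 98.6% of 74 regions within 1 kb and in 90.8% of 120 at 10 to 100 kb. For gains it was also a gain in 11 of 12 regions within 1 kb and in 32 of 40 at 1 to 10 kb, but in 22 of 66 at 10 to 100 kb. Of all autosomal CHH regions 84.1% were lower, but this share depends on place. Gains were 41.0% of those inside protein-coding genes and 2.06% of those outside. The shares by distance were not corrected for that.

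The CHH surroundings of CHG gains differed by place. Inside protein-coding genes 53 of 104 gains had a CHH region within 10 kb, and in 52 of these 53 it was a gain. Outside such genes 13 of 41 gains had one, and in 3 of these 13 it was a gain. Gains outside genes also had lower levels, with medians of 0.126% in control and 3.18% in cKO over 9 cytosines, against 0.453% and 5.02% over 11 cytosines inside. For CHG losses the nearest CHH region within 10 kb was a loss in 82 of 89 regions inside genes and 215 of 217 outside. Of all autosomal CHH regions inside protein-coding genes 41.0% were gains, and of those outside 2.06% were. The counts for CHG gains were not corrected for that.

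In overlapping regions of the same direction the median CHG difference was larger than the median CHH difference. Over the 93 pairs of losses the median level in control was 7.41% in CHG and 6.37% in CHH, and in cKO 0.696% and 1.09%. CHG was the higher of the pair in 67 of 93 in control and the lower in 67 of 93 in cKO. Over the 12 pairs of gains the median in cKO was 9.25% in CHG and 7.87% in CHH, and in control 0.804% and 1.77%. CHG was the higher of the pair in 10 of 12 in cKO and the lower in 9 of 12 in control. The median difference between groups was -6.69 points in CHG and -5.19 points in CHH for losses, and 7.43 and 5.93 points for gains. The CHG region lay wholly inside the CHH region in 55 of 94 losses and 7 of 14 gains. CHG means rest on fewer cytosines, a median of 18.0 against 76 in these losses, and both contexts come from the same libraries. Each pair also starts from a CHG region that was listed for its difference, so the comparison is not independent of that choice. How much of the gap between contexts comes with it was not tested.

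**Figure D4:**
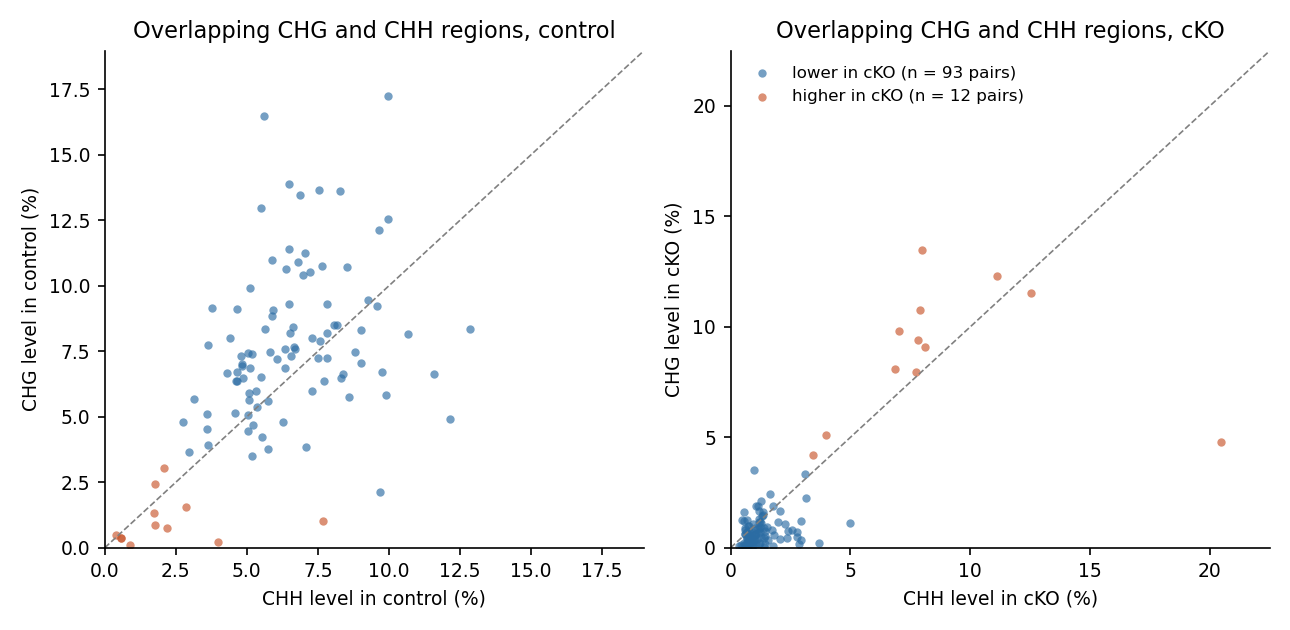
Mean level of a CHG region (y axis, percent) against that of the CHH region it overlaps most (x axis, percent) in control (left) and cKO (right), for the 93 pairs lower and the 12 higher in cKO in both contexts; the dashed line marks equal levels. Losses lie mostly above the line in control (67 of 93) and gains mostly above it in cKO (10 of 12).

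The largest gap between the contexts among the gains was in Pla2g6, a phospholipase, where the CHG region with 93 cytosines reached 4.81% and the CHH region inside it, with 12 cytosines, 20.5%. Intu, a protein of planar polarity and cilia, was at 12.3% in CHG and 11.1% in CHH in cKO, and Dis3l, an RNA exonuclease, at 7.97% and 7.73%. Det1, which belongs to a ubiquitin ligase, had 2 CHG gains 76 bp apart, at 9.81% and 13.5% in cKO and 2.44% and 3.04% in control. Both overlapped CHH gains, at 7.04% and 7.97% in cKO. Among the losses, Bnc2, a zinc finger protein, was at 13.9% in CHG and 6.48% in CHH in control. Nos2, the inducible nitric oxide synthase, was at 8.52% and 8.19%, and Prtg, a surface protein of the embryo, at 9.08% and 5.91%.

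CG regions were met less often, and by losses only. A CG region overlapped 29 of the 452 CHG losses (6.42%), and in all 29 it was a CG loss. It overlapped 0 of the 145 gains (95% exact binomial upper limit 2.51%). CHH regions were similar, with a CG region on 5.43% of the CHH losses and 0.131% of the CHH gains. The median distance to the nearest CG region was 8.97 kb for losses and 40.1 kb for gains, and to the nearest one of the same direction 8.98 kb and 381 kb. CHH losses and gains lay at 7.43 kb and 39.5 kb from a CG region, so the CHG regions stood much as the CHH regions did. The nearest CG region was a loss for 440 of the 452 CHG losses and for 115 of the 145 gains, and 94.5% of all autosomal CG regions were losses. In the 29 overlapping pairs the median CG level went from 75.3% in control to 37.3% in cKO, a difference of -37.8 points, while CHG went from 7.32% to 0.513%. Of the 452 losses 14 overlapped both a CHH and a CG region, among them regions in Prdm16, Vav3, Nos2 and Zfp536. The Vav3 region was at 11.4% in control and 1.17% in cKO in CHG, and the CG region on it at 89.4% and 44.6%. The Prdm16 region was at 10.4% and 1.16% in CHG and at 86.6% and 43.4% in CG. Regions that overlapped neither context, 343 losses and 131 gains, held fewer cytosines (a median of 11 in each) and smaller differences (-4.31 and 4.05 points).

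CHG gains lay mostly inside protein-coding genes and losses mostly outside. Of the gains 104 of 145 (71.7%, 95% exact binomial interval 63.7% to 78.9%) overlapped a protein-coding gene, against 124 of 452 losses (27.4%, interval 23.4% to 31.8%). The share for gains was smaller than the 91.7% of CHH gains and the 91.5% of CG gains, while that for losses was near the 24.9% of CHH losses and the 31.0% of CG losses. Outside protein-coding genes 11.1% of the CHG regions were gains, against 2.06% of the CHH and 0.719% of the CG regions there. Of the 41 gains outside such genes 13 lay more than 100 kb from the nearest one, as did 111 of the 328 losses. Exons, introns, repeats and CpG islands were not analysed here.

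**Figure D5:**
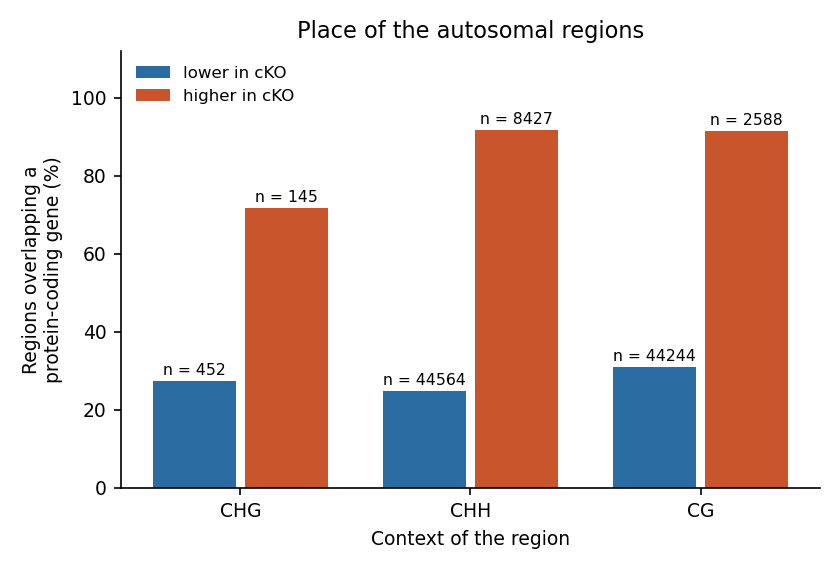
Share of the autosomal regions that overlap a protein-coding gene by at least 1 bp (y axis, percent), by context (x axis) and by direction in cKO; n is the number of regions behind each bar. CHG gains stand at 71.7%, between the losses of all 3 contexts (24.9% to 31.0%) and the gains of CHH and CG (91.7% and 91.5%).

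The CHG regions fell into few genes, and no protein-coding gene held both directions. A long non-coding RNA gene, Gm26680, held 1 of each and is named because it was seen to do so. Of 20560 protein-coding autosomal genes 114 (0.554%) overlapped a CHG loss and 101 (0.491%) a CHG gain. Shares this small leave little room for a gene with both, and the absence of such a gene was not tested. These genes were long, with medians of 121 kb for losses and 109 kb for gains against 17.6 kb for all, and longer genes offer more room for a region. Of the 114 genes with a CHG loss 101 held a CHH region, and CHH losses outnumbered gains in 81 of them and gains outnumbered losses in 17. Of the 101 genes with a CHG gain 82 held a CHH region, and CHH gains outnumbered losses in 68 and losses outnumbered gains in 11. Over all protein-coding genes 5903 held a CHH region, with gains in the majority in 2875 and losses in 2910. In CG, losses outnumbered gains in 87 of 92 genes with a CHG loss and in 34 of 50 with a CHG gain, against 3789 of 5174 over all protein-coding genes.

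Prdm16 and Sox6 were the genes with the most CHG regions, with 3 losses each. In Prdm16, a zinc finger transcription factor, the CHG levels in control were 8.31%, 9.05% and 10.4%, and those in cKO 1.003%, 0.820% and 1.16%. In Sox6, a SoxD factor that marks interneurons of the medial ganglionic eminence, they were 10.1%, 9.23% and 12.1% in control and 2.20%, 1.23% and 2.26% in cKO. Both genes held CHH losses in number, 83 in Prdm16 and 60 in Sox6, with 0 CHH gains. Genes with 2 losses included Alk, a receptor tyrosine kinase (10.1% to 1.76% and 8.70% to 1.16%), and Msi2, an RNA-binding protein (3.17% to 0.115% and 13.1% to 2.58%). Pax5, the B cell transcription factor, went from 5.12% to 0.124% and from 8.21% to 1.16%, and Zfp536 from 5.91% to 0.197% and from 4.79% to 0.0631%. All 4 regions of Pax5 and Zfp536 overlapped a CHH loss. Vav3, a guanine nucleotide exchange factor, had a second loss from 5.005% to 0.262%. The T cell receptor locus Tcra also held 2 losses, from 10.7% to 1.64% and from 8.85% to 2.03%.

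By area statistic, the authors' score summed over the cytosines of a region, the strongest losses lay outside genes. The strongest (chr9:71323967-71324173, 72 cytosines, 27.7 kb from Aldh1a2) went from 5.12% to 0.962%. The next (chr12:69441431-69441650, 67 cytosines, 65.5 kb from Arf6) went from 7.58% to 1.59%. Among losses outside genes a region near Mobp followed (chr9:120143291-120143484, 53 cytosines), with 4.22% in control and 0.307% in cKO. Inside genes Ripk4, a kinase of epidermal differentiation, was first (chr16:97761627-97761936, 55 cytosines, 7.66% to 0.789%), with a CHH loss on it and 0 CG regions in the gene. Wwox, a very long gene at a fragile site, went from 9.24% to 2.25%. Tlr5, the receptor of flagellin, went from 6.51% to 0.671%, and Smad6, an inhibitor of BMP signalling, from 5.83% to 0.461%. Lpp, a LIM domain protein, went from 7.98% to 0.0783%. The nearest CHH region, 9.60 kb away, was a gain, and the nearest CG region, 0.121 kb away, a loss. The gene held 8 CHH losses, 2 CHH gains, 25 CG losses and 0 CG gains. Shank2, a postsynaptic scaffold, kept the highest level in cKO of the 452 losses, at 4.73% against 13.9% in control. Tmem72 went from 9.12% to 1.64%, with 0 CHH and 0 CG regions in the gene.

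The strongest gain by the same score was the region in Pla2g6 (chr15:79287943-79288132), from 1.03% to 4.81%. Nsun4, a methyltransferase of mitochondrial ribosomal RNA, had 2 gains 409 bp apart. Their levels were 2.84% and 3.36% in control and 9.91% and 10.5% in cKO, and the gene held 1 CHH region, a gain. Fndc3b went from 0.854% to 5.90%, Rptor, a subunit of the mTOR complex, from 1.09% to 5.26%, and Pign, an enzyme of GPI anchor synthesis, from 1.51% to 8.48%. Map3k2, a kinase of the MAP kinase pathway, went from 0.637% to 6.08%, with 0 CHH and 0 CG regions in the gene and the nearest CHH region at 107 kb. Tbc1d22a went from 0.396% to 7.95%. Rasa3, an inhibitor of Ras, went from 3.23% to 12.6%, 329 bp from a CG gain, which made it the gain nearest to a CG region. Foxp1, a transcription factor of cortical neurons, went from 1.82% to 11.0%, and the gene held 6 CHH gains and 10 CG gains with 0 CHH losses and 2 CG losses. The largest difference of the 145 gains was in Fam172a, from 0.853% to 15.9%, but over 7 cytosines, and the gene was named after its value was seen. Outside genes the strongest gain (chr13:102421675-102421743, 272 kb from Cd180) went from 0.157% to 2.38%. The next, 0.34 kb from Lrrc28 (chr7:67512941-67513070), went from 1.33% to 8.09% and lay wholly inside a CHH gain.

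The largest of the 452 autosomal CHG losses lay in a stretch of chromosome 1 known as a nuclear copy of mitochondrial DNA. The region on the pseudogene Gm10222 (chr1:24612109-24612501, 27 cytosines) went from 17.2% in control to 0.880% in cKO. A further one 1.05 kb away (chr1:24613553-24613704, 14 cytosines) went from 12.6% to 0.0852%. Both overlapped the same CHH loss, which spans 1663 bp, the longest CHH region on the autosomes, and went from 9.95% to 0.620%. On mitochondrial DNA, which is outside the 597, the table lists 3 CHG regions, at 6.04%, 5.08% and 17.9% in control and 0.435%, 0.434% and 0.0755% in cKO. Whether the reads behind the chromosome 1 regions came from the nucleus or from mitochondria cannot be told apart in group means. Without these 2 regions the median control level of the losses was 5.41% in place of 5.42%.

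Named gene lists held few CHG regions in number, although the shares of several lists were above those of all protein-coding genes. These lists were written with earlier results of the data known. Of 16 H3K36 methyltransferases and demethylases only Nsd1, the targeted gene, held one (6.25%). Of 18 autosomal writers, erasers and readers of DNA methylation 0 did, which is near the shares of 0.554% with a loss and 0.491% with a gain over all protein-coding genes. Of 64 developmental transcription factors of other lineages 4 held a loss (6.25%, against 0.554% of all protein-coding genes) and 1 a gain (1.56%, against 0.491%). The losses were in Prdm16, Pax5, Zfhx3 (7.70% to 0.225% and 6.59% to 0.0806%) and Prdm1, a factor of plasma cells (7.49% to 0.757%). The gain was in Meis2, a homeobox factor, from 1.89% to 10.9%. The genes with these losses and this gain were 91.4 kb to 682 kb long. The median length was 29.2 kb in the list and 17.6 kb over all protein-coding genes, and the shares were not corrected for length. Losses of Prdm16 and Sox6 in the other contexts were known when the lists were written, so these counts are not independent evidence. Of 43 autosomal synaptic adhesion genes 0 held a loss and 3 a gain (6.98%). Nrxn2, a presynaptic neurexin, went from 0.265% to 3.79% over 23 cytosines. Dscam, a homophilic adhesion molecule, went from 0.0850% to 2.93% over only 7 cytosines. Lrrtm3, a postsynaptic adhesion protein whose gene lies inside Ctnna3, went from 0.105% to 4.83%, also over 7 cytosines. These adhesion genes have a median length of 718 kb, far above that of all genes.

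Of 42 voltage-gated channel genes 1 held a loss and 1 a gain (2.38% each), each over fewer than 10 cytosines. Over all protein-coding genes 0.554% held a loss and 0.491% a gain. The channel genes had a median length of 250.5 kb and the transmitter receptor genes one of 223.9 kb, against 17.6 kb for all protein-coding genes. Cacna2d2, an auxiliary calcium channel subunit, went from 2.35% to 0.311% in a region inside a CG loss, and Cacnb2, the beta subunit, from 0.108% to 2.38%. Of 39 autosomal transmitter receptor genes 1 held a loss (2.56%), Grm8, a metabotropic glutamate receptor, from 10.9% to 1.54% over 5 cytosines. Of 36 genes of excitatory neuron and layer identity 1 held a gain (2.78%), Foxp1, and of 28 interneuron genes 1 held losses (3.57%), Sox6. Of 33 autosomal markers of glia and vessels 1 held a loss and 1 a gain (3.03% each). The loss was in Pecam1, an endothelial adhesion molecule (10.9% to 0.877% over 7 cytosines). The gain was in Mbp, a myelin protein (1.31% to 5.52% over 9 cytosines). The tissue mixes these cell types, so a change in the share of cells and a change within cells cannot be told apart.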

How the data were processed

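Whole-genome bisulfite sequencing had been done on 4 libraries, 2 cKO and 2 control. Per the submitters' processing notes, Bowtie2 and CASAVA were used with the build mm10, and neither version nor role is recorded. Which caller and thresholds gave the regions, and how replicates were combined, is not stated in the sources used here. The authors' deposited table gives per region the mean methylation of each group as a fraction, printed here as a percent, the count of cytosines, the length, and an area statistic and a difference, which are scores. The deposited difference matched cKO minus control within 1e-09 in all 597 CHG regions, and 0 of them overlapped another. No value per library and no coverage is given, so depth is unknown and differences were described without tests.

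Regions were compared with Python 3.11.15, numpy 2.4.6, pandas 2.3.3 and scipy 1.17.1. Regions overlapped when they shared at least 1 bp, and distances run from edge to edge. The overlap and distance steps were tested on simulated data. Genes came from RefSeq on GRCm38.p6 (46714 autosomal genes, 20560 protein-coding), leaving out entries in the first 3 Mb of a chromosome, which lie on scaffolds. The authors' group columns were assigned by name. Intervals are exact Clopper-Pearson at 95% and cover counting only. Of overlapping partners, the one sharing most bases was used.

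The members and gene lists were chosen with earlier results of these data known. Genes were named by a fixed rule: Nsd1; per direction the 10 strongest regions in genes by area statistic, the 5 largest differences over at least 10 cytosines and the 3 strongest outside genes; up to 10 genes with 2 or more regions; list members; and genes whose promoter window shares bases with a region. Predicted models were passed over in the parts on strength, number and lists. Fam172a, Prdm1, Gm10222's neighbourhood, the pairs of opposite direction and the classes of level were chosen after values were seen. Alternatives were another overlap, distance, gene set, filter on cytosines, area or difference, all chromosomes, and leaving out the regions near Gm10222.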

Additional observations from a re-analysis of the deposited data

Results flagged for a closer look

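Outside the autosomes, on the X, the table lists 6 CHG regions higher in cKO, which no comparison above uses. Their levels ranged from 0.109% to 0.618% in control and from 3.06% to 6.06% in cKO. The X also holds 11 CHG losses, with medians of 3.25% in control and 0.0935% in cKO, and the Y holds 2 losses.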

How the results depend on the processing

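Of 51 alternative values for 21 results, 34 stayed within the 95% interval of the value reported and 17 moved beyond it. Intervals were exact binomial for shares and from order statistics for medians. Shares, levels and distances cannot change sign. The differences between CHG and CHH levels, which can, kept theirs. The share of losses, 75.7% as reported, was 80.3% among regions with an area statistic at or above the CHG median, 79.5% among those with at least 10 cytosines and 79.2% among those that differed by at least 4 points. Mean levels weighted by cytosines were higher than the medians: 6.20% in control and 0.671% in cKO for losses, 0.801% and 5.79% for gains. A mean was set against a median there, so the shift is not one of weighting alone. With at least 10 cytosines the median levels were 5.95% in control and 0.504% in cKO for losses, and 0.490% and 5.22% for gains. With the filter on the area statistic, losses overlapped CHH regions in 27.9% and CG regions in 10%. Counting only neighbours of the same direction, the median distance of gains was 46.4 kb to CHH and 381 kb to CG. Gains are fewer than losses in both contexts, and these distances were not corrected for that. With an overlap of at least 50% of the CHG region, losses matched the CHH direction in 100%. With any gene of the annotation, 40.04% of the losses were genic. Leaving out the 2 regions near Gm10222, chosen after seeing the data, kept all 5 values it was tried on within their intervals. No paired analysis was possible because the table gives group means and no value per library, so leaving out a library was not possible either.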

Other observations

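The counts of CHG regions were small and differed between chromosomes, and those named here were picked because their values stood out. Chromosome 13 held 14 gains among 31 regions (45.2%) and chromosome 11 held 2 among 33 (6.06%), against 24.3% on all autosomes. Chromosome 19 held 5 CHG regions, 0.838% of them all, against 2.06% of the CHH and 2.59% of the CG regions. On chromosome 7 the shares were 8.21%, 6.22% and 4.97%. No test was made of these shares.

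A small share of the CHG regions lay close to other CHG regions, but a larger one than of CHH or CG regions. Within 10 kb of another lay 26 of the 597, which were 3.76% of the losses and 6.21% of the gains. A CHG region lay within 10 kb of 1.86% of the CHH losses and 1.27% of the CHH gains. For CG the shares were 1.17% and 0.386%. Of the 26, 20 had a nearest CHG region of the same direction. At any distance, the nearest CHG region shared direction for 75.2% of the losses and 24.8% of the gains. Losses made up 75.7% and gains 24.3% of all CHG regions, so these shares are near those of the directions themselves. The count of 20 among 26 was not corrected for this. The closest pair of opposite direction, 0.922 kb apart on chromosome 6, held 5 and 4 cytosines, with 0.0795% in control and 4.81% in cKO beside 2.65% and 0.0781%. Shc3, an adaptor protein of neurons, held 2 gains, and its CHH regions were 6 gains and 0 losses.

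CHG regions lay far from gene starts. Of the 434 losses on chromosomes with RefSeq start sites in hand, 24 lay within 2 kb of one (5.53%), and of 136 gains 2 did (1.47%). For CHH the shares were 6.36% and 1.71%, and for CG 9.35% and 7.48%. Chromosome 18 was not analysed here for this measure.

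There were 10 losses and 8 gains more than 100 kb from both a CHH and a CG region. The losses among them had medians of 3.92% in control and 0.228% in cKO, and the gains 0.126% and 3.09%.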
